A study of Mus musculus with 2 samples.

Results

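The genes described here encode the semaphorins, the plexins and the neuropilins. They were taken as every non-control probe of the arrays whose gene name in the scanner files is that of a semaphorin of classes 3 to 7, a plexin or a neuropilin, which gave 31 genes with 41 probes out of 30919 gene names and identifiers with 39429 probes. The 31 are 20 semaphorins, 9 plexins and 2 neuropilins. Of these genes, 21 had 1 probe and 10 had 2 probes.

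RNA of sorted cells was compared between a colon pool and a blood pool. The colon pool held CX3CR1high CD11b+ CD11c+ cells of the lamina propria of the large intestine, from CX3CR1gfp/+ mice, a reporter strain in which an allele of the fractalkine receptor gene Cx3cr1 carries green fluorescent protein in place of the coding sequence. The blood pool held Ly6c+ CD11b+ monocytes from C57BL/6J mice. The labels name no treatment and give no age. A figure of n = 10 stands in the design text for the cells of the colon and n = 6 for those of the blood, with the unit of n unstated. Both pools were hybridised together to 2 two-colour arrays, with the colon pool in Cy5 on array 1 and in Cy3 on array 2. Whether both arrays carried the same RNA extracts is not stated in the labels. The 2 arrays were taken as a dye swap of the same 2 pools, counted as 1 replicate, and allow no p-value. Each SD is over the 2 arrays and does not cover the spread between mice or pools.

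Semaphorins are secreted or membrane-bound ligands that were found as guidance cues for growing axons and that also act on the movement and contacts of leukocytes and of vessel-lining cells. Plexins are their main receptors and signal through a cytoplasmic GTPase-activating domain. Neuropilins lack such a domain, bind secreted semaphorins together with plexins of type A, and also bind growth factors of the VEGF family.

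The sort genes and marker genes were read as a check of the labels. Itgax, which encodes CD11c, was higher in the colon pool (log2 ratio 3.35 ± 0.08) and Ly6c1 was lower (-3.28 ± 0.09). Itgam, which encodes CD11b (-0.46 ± 0.33), and Cx3cr1 (0.10 ± 0.25) passed no threshold. The mice of the colon pool carry an altered Cx3cr1 allele and those of the blood pool do not, and its part in the Cx3cr1 ratio was not tested. Of 10 measured macrophage markers 7 were higher and 0 lower in the colon pool, and of 9 measured markers of Ly6C-high monocytes 0 were higher and 9 lower. Markers of other cell types went both ways. Higher in the colon pool were 10 of 11 measured markers of fibroblasts and smooth muscle, 8 of 10 of epithelium, 6 of 7 of B cells and plasma cells, 7 of 9 of T cells and 4 of 10 of endothelium, with 0 lower in each of these lists. Of 7 measured neutrophil markers 0 were higher and 3 lower, of 5 platelet markers 1 was higher and 3 lower, and of 7 measured markers of conventional dendritic cells 2 were higher and 1 lower. Tissue, mouse strain and isolation differed together with the cell type and cannot be told apart from it.

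A gene counted as measured if at least 1 of the pools passed the scanner software's flag for a signal well above background on array 1 and on array 2. It was called higher or lower in the colon pool when the colon-over-blood ratio was at least 2-fold in that direction on each array. Of the 31 genes 26 were measured, of which 18 were well above background in both pools and 8 in the colon pool alone. By this rule 9 of the 26 (34.6%) were higher in the colon than in the blood pool and 0 were lower, beside 14.0% higher and 4.26% lower among all 17225 measured genes. Under median centring 7 were higher and 0 lower, beside 7.31% and 3.38% of all measured genes, and with the scanner software's own ratios 13 were higher and 0 lower, beside 19.8% and 13.4%. The 9 are the semaphorin genes Sema3b, Sema3c, Sema3f, Sema3g, Sema4b, Sema5a and Sema7a, the plexin gene Plxna4 and the neuropilin gene Nrp2. The median log2 ratio of the 26 was 0.66, against 0.06 for all measured genes. A gene that entered only through the colon pool could not have been called lower, so these shares are descriptions of the list and not evidence about it. Of the 18 genes well above background in both pools 6 were higher and 0 lower. Among all 14489 genes that were well above background in both pools the shares were 12.6% higher and 4.85% lower. In bulk RNA, fewer cells that express a gene and less RNA per cell cannot be told apart.

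**Figure D1:**
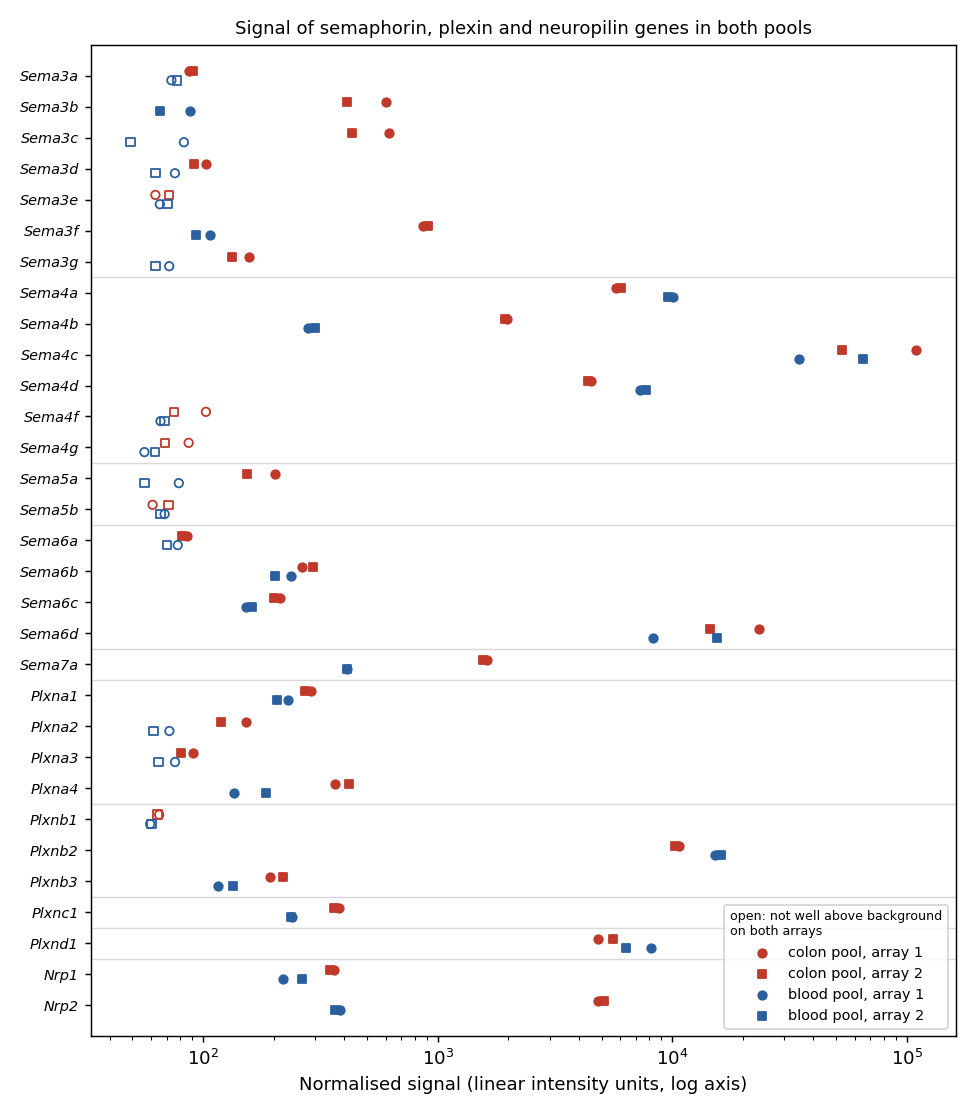
Normalised signal of each of the 31 genes (log axis, linear intensity units, with an offset of 50 included) in the colon pool (red) and the blood pool (blue), array 1 as circles and array 2 as squares, with open symbols where the pool was not well above background on both arrays. The colon symbols of Nrp2, Sema4b, Sema7a, Sema3b, Sema3c and Sema3f lie clear to the right of the blood symbols, whereas those of Sema4a, Sema4d, Plxnb2 and Plxnd1 lie to the left.

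The class 3 semaphorins, which are secreted, held 4 of the 9 higher genes, out of 6 measured and 7 present. Signals are given as normalised intensities in linear units, in the order array 1 and array 2, and they compare the pools for a probe, not different genes. Sema3f, a ligand that binds neuropilin-2, read 865 and 913 in the colon pool, against 108 and 93.8 in the blood pool. Both colon values lay above both blood values, with a log2 ratio of 3.15 ± 0.20 (8.85-fold). Its probe lies at chr9:107583833-107583892 (mouse build mm9, minus strand). Sema3b, with its probe at chr9:107500686-107500745 on the same strand, read 599.8 and 413 in the colon pool, against 87.8 and 65.5 in the blood pool (2.71 ± 0.08, 6.56-fold). The order was the same on both arrays. With the scanner software's ratios Sema3f was at 3.95 and Sema3b at 4.33, and with an offset of 16 in place of 50 Sema3b was at 3.44.

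Sema3c, a secreted ligand of both neuropilins, had 2 probes, which are shown because their ratios differ in size. They lie on the plus strand of chromosome 5 in build mm9, the 3′ probe at chr5:17235981-17236040 and the 5′ probe at chr5:17234078-17234137. Nothing is marked in them, and all letters are in lower case.
Sema3c 3′ probe: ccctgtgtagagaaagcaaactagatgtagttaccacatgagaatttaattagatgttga
Sema3c 5′ probe: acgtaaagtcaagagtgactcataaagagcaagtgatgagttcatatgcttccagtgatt
With the 3′ probe the colon pool read 623 and 430 and the blood pool 82.9 and 49.2. The blood signal was not well above background on either array, so the bound from this probe was at least 8.10-fold higher in the colon pool. With the 5′ probe the colon pool read 142 and 123 and the blood pool 73.3 and 61.5, and the ratio was 0.98 on the log2 scale. Both probes gave higher colon values, but the 5′ probe alone would have passed on neither array. The Sema3c log2 ratio was 1.997 with the mean over both probes, 2.86 under median centring and 5.96 with the scanner software's ratios.

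Sema3g, a secreted semaphorin known from vessel-lining cells, read 158 and 133 in the colon pool, against 71.8 and 62.7 in the blood pool, where it was not well above background, and was at least 2.16-fold higher. Its other probe was not well above background in either pool (log2 ratio 0.08), and with the mean over both probes the call was lost (0.59), while the scanner software's ratios gave 4.47. Sema3a, the classical repellent of axons, read 87.2 and 90.9 in the colon pool, against 73.4 and 77.7 in the blood pool, where it was not well above background, and gave a bound of at least 1.18-fold. Sema3d read 103 and 91.9 in the colon pool, against 75.9 and 62.9 in the blood pool, with a bound of at least 1.41-fold. Neither passed the 2-fold rule, although Sema3d did with the scanner software's ratios (2.43). Sema3e, which binds plexin D1 without a neuropilin, was not well above background in either pool. For these dim genes the offset of 50 added to every intensity compresses the ratio.

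The class 4 semaphorins, which span the membrane, held 1 called gene and ratios on both sides of 0. Sema4b read 1976 and 1946 in the colon pool, against 279.9 and 299 in the blood pool, a log2 ratio of 2.76 ± 0.08 (6.77-fold) or 2.16 under median centring, and was the gene called among 4 measured. Sema4a, a ligand on myeloid cells that is known to act on T cells, read 5783 and 6060 in the colon pool, against 10079 and 9607 in the blood pool (-0.73 ± 0.10). Sema4d, also called CD100, a ligand of plexins of type B and of the leukocyte receptor CD72, read 4489 and 4377 in the colon pool, against 7324 and 7725 in the blood pool (-0.76 ± 0.08). For both genes the colon values lay below the blood values on each array, yet the difference did not reach 2-fold. Their ratios stayed below 0 under the 13 alternatives in processing and array choice, some of which cannot change a ratio. The range was from -1.49 to -0.66 for Sema4a and from -1.51 to -0.71 for Sema4d. Sema4f and Sema4g were well above background in the colon pool on 1 array alone and were not measured.

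Sema4c, a ligand of plexin B2, and Sema6d, a ligand of plexin A1, could not be read in the same way. The Sema4c probe gave 109687 and 52907 in the colon pool, against 34785 and 65334 in the blood pool, with log2 ratios of 1.66 on array 1 and -0.30 on array 2 (0.68 ± 1.39). The brighter Sema6d probe gave 23469 and 14562 in the colon pool, against 8269 and 15474 in the blood pool, with 1.505 on array 1 and -0.088 on array 2 (0.71 ± 1.13). On each array the pool that carried Cy5 gave the higher reading. The probes are shown because both hold a run of GT repeats, set in capitals, of 23 bases in the Sema4c probe (chr1:36605998-36606057, mm9, minus strand) and of 20 bases in the brighter Sema6d probe (chr2:124491609-124491668, plus strand). The other Sema6d probe, at chr2:124490948-124491007, has none.
Sema4c: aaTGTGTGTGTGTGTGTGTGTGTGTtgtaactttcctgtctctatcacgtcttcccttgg
Sema6d 3′ probe: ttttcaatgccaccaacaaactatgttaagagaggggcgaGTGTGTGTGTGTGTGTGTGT
Sema6d 5′ probe: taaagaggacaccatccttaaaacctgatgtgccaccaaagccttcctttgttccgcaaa
The Sema6d probe without the run read 211 and 185 in the colon pool, against 85.9 and 73.6 in the blood pool, and its ratios of 1.30 and 1.33 on the 2 arrays gave a mean of 1.31. It was well above background in both pools on both arrays and passed the 2-fold rule on each. With probes that hold a GT run left out, a choice made after the data were seen, Sema6d was higher in the colon pool and the count of higher genes became 10.

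The same difference between the arrays was found across the array design. Of 39424 probes, 102 hold a run of at least 6 GT units. Their log2 ratio on array 1 exceeded that on array 2 by 1.77 in the median (quartiles 1.58 and 2.12), and by at least 1 for 99 of the 102. Among 39272 probes with neither a GT run nor the complementary AC run, 38 differed by at least 1, and the median difference was 0.01. The 50 probes with an AC run had a median difference of 0.26, and 0 of them reached 1. The median normalised signal was 30798 for probes with a GT run and 91.7 for probes with neither run. The values describe probes and not transcripts, and what gives these signals was not tested.

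**Figure D2:**
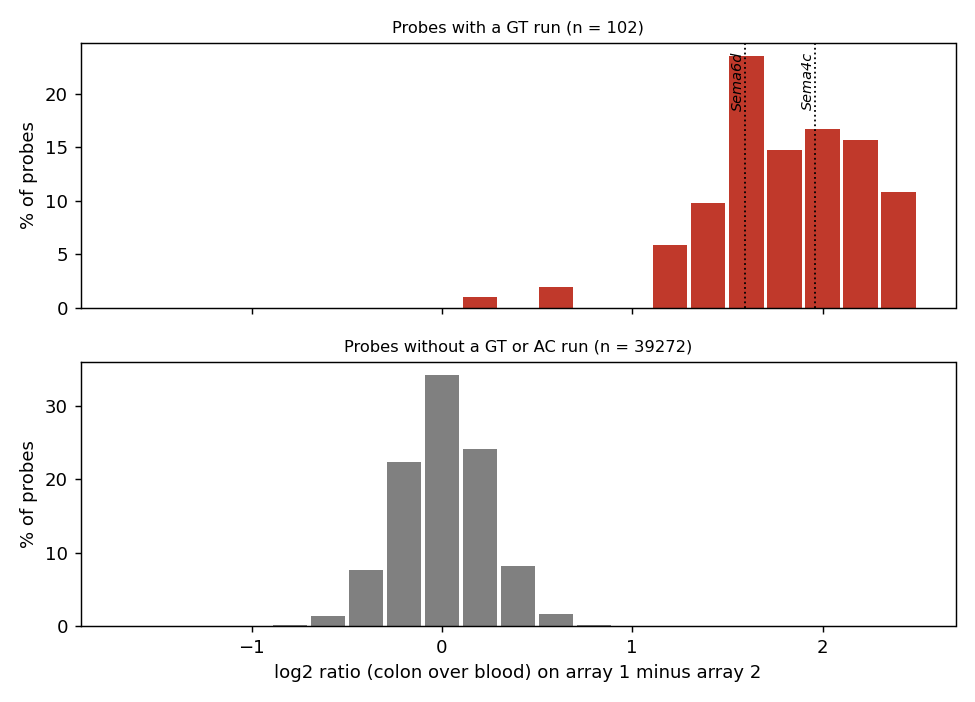
Difference between the log2 ratio (colon over blood) on array 1 and on array 2, as a percentage of probes per bin of 0.2, for the 102 probes with a GT run (top) and for the 39272 probes with neither a GT nor an AC run (bottom). Dotted lines mark the probes of Sema6d (1.59) and Sema4c (1.96), which lie among the probes with a GT run and outside nearly all others.

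The class 5 semaphorin Sema5a, a membrane protein with thrombospondin repeats, read 202 and 153 in the colon pool, against 78.9 and 56.5 in the blood pool, where it was not well above background, and was at least 2.64-fold higher. Its log2 ratio of 1.399 was 2.12 with an offset of 16 and 4.97 with the scanner software's ratios. Sema5b was not well above background in either pool. In class 6, whose members span the membrane and bind plexins of type A, Sema6b had a log2 ratio of 0.34 ± 0.27 and Sema6c of 0.41 ± 0.12, and neither passed. Sema6a read 85.8 and 81.4 in the colon pool, against 78.1 and 70.3 in the blood pool, where it was not well above background, with a bound of at least 1.13-fold. It did not pass, but did with the scanner software's ratios (1.93). Under median centring the ratio of Sema6b turned to -0.01. Sema7a, which is held on the membrane by a lipid anchor and binds plexin C1 and integrins, read 1623 and 1563 in the colon pool, against 410 and 412 in the blood pool. Its ratio of 1.95 ± 0.04 (3.88-fold) passed on both arrays, and under median centring it was 1.34 and missed the rule on 1 array.

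**Figure D3:**
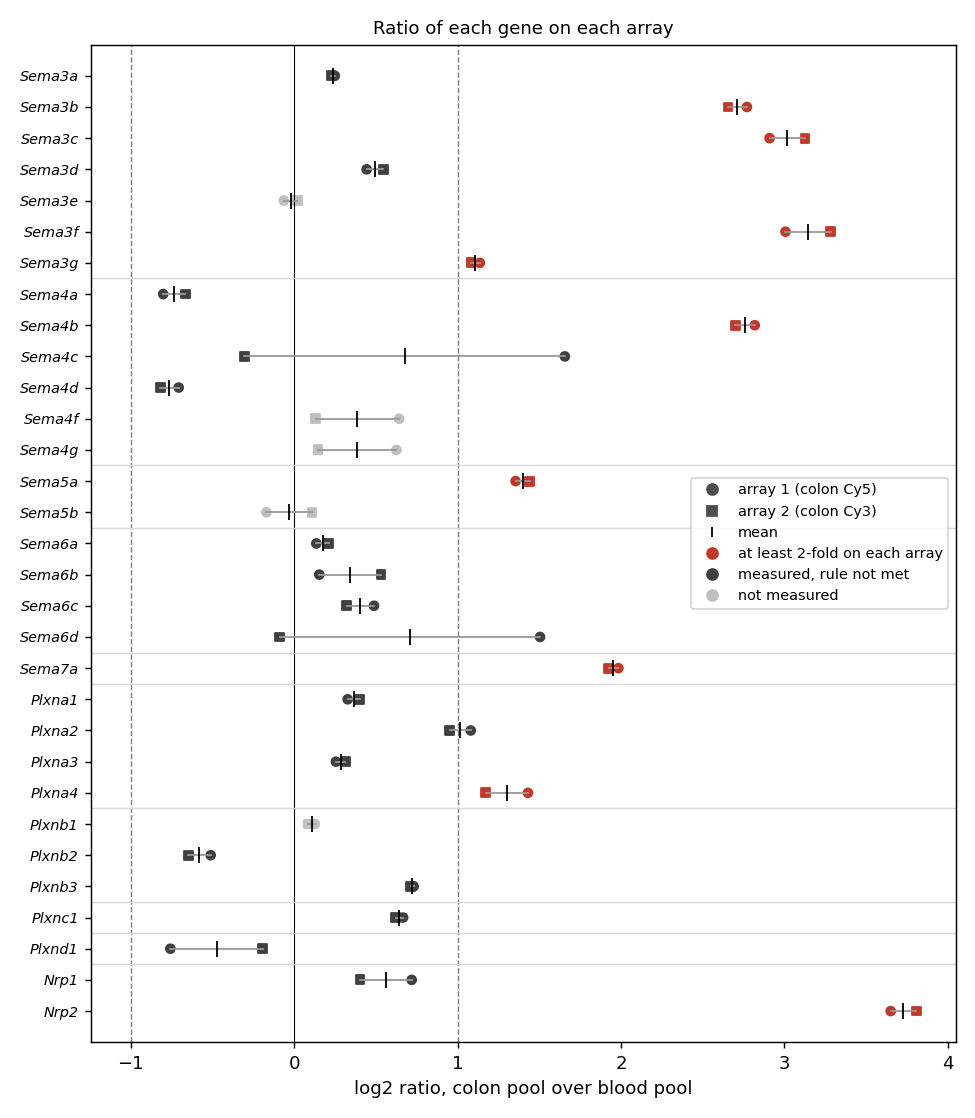
Colon-over-blood log2 ratio for each gene on array 1 (circles) and array 2 (squares), with the mean as a black tick and dashed lines at 2-fold, red where the rule was met on each array and pale grey where the gene was not measured. Most pairs of symbols lie close together, whereas Sema4c and Sema6d span from 1.66 to -0.30 and from 1.505 to -0.088.

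Among the plexins, 1 of 8 measured genes was called higher (12.5%), a share near the 14.0% of all measured genes. Plxna4, a receptor for semaphorins of classes 3 and 6, read 366 and 419 in the colon pool, against 136 and 186 in the blood pool (1.30 ± 0.18, 2.47-fold). Its other probe was well above background in the colon pool on 1 array alone and gave 0.21. The Plxna4 call was lost under median centring (0.91) and with the mean over both probes (0.76). Plxna1, a partner of neuropilins and a receptor for Sema6d, had a ratio of 0.36 ± 0.05 and did not pass. Plxna2 read 152 and 119 in the colon pool, against 71.9 and 61.5 in the blood pool, where it was not well above background. Its bound of at least 2.02-fold lay at the threshold, with log2 ratios of 1.08 and 0.95 on the 2 arrays, and it passed with an offset of 16 in place of 50 (1.65). Plxna3 read 90.8 and 80.4 in the colon pool, against 76.0 and 64.7 in the blood pool, where it was not well above background, with a bound of at least 1.22-fold. With the scanner software's ratios Plxna2 was at 4.31 and Plxna3 at 1.82, and both passed.

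Plxnb2 and Plxnd1 had ratios below 0 on both arrays without reaching the threshold. Plxnb2, which encodes a receptor of class 4 semaphorins that is common on myeloid cells, read 10671 and 10283 in the colon pool, against 15201 and 16114 in the blood pool (-0.58 ± 0.10). Plxnd1, the receptor of Sema3e, read 4815 and 5589 in the colon pool, against 8140 and 6383 in the blood pool (-0.47 ± 0.40), and its other probe gave -0.56. Under the 13 alternatives Plxnb2 ranged from -1.36 to -0.51 and Plxnd1 from -1.22 to -0.19, with median centring the lowest for both. Plxnc1, the receptor of Sema7a, had 0.64 ± 0.03 from one probe and 0.50 from the other, and Plxnb3 had 0.72 ± 0.01. Neither passed. Plxnb1, a receptor of Sema4d, was not well above background in either pool.

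Nrp2, which encodes the neuropilin that binds Sema3f and the lymphatic growth factor VEGF-C, was higher in the colon pool. It read 4818 and 5139 in the colon pool, against 384 and 367 in the blood pool, a log2 ratio of 3.73 ± 0.11 (13.3-fold), or 3.06 under median centring. Its 2 probes are shown because they were designed on different transcripts of the gene, variant 1 and variant 5 in the array annotation, and lie 21831 bases apart on the plus strand of chromosome 1. The variant 1 probe is at chr1:62865129-62865188 and the variant 5 probe at chr1:62843298-62843357 (mm9). Capitals mark AATAAA, the hexamer of polyadenylation signals, which was found in the variant 1 probe alone.
Nrp2 variant 1 probe: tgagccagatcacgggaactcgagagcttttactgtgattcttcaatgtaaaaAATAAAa
Nrp2 variant 5 probe: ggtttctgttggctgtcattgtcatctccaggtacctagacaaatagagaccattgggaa
With the variant 5 probe the colon pool read 1080 and 999, against 139.5 and 131 in the blood pool, a ratio of 2.94. Both probes passed on each array, so the difference was seen with either. Nrp1, a receptor for Sema3a and VEGF-A, read 360 and 349 in the colon pool, against 219 and 264 in the blood pool (0.56 ± 0.22), and did not pass.

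**Figure D4:**
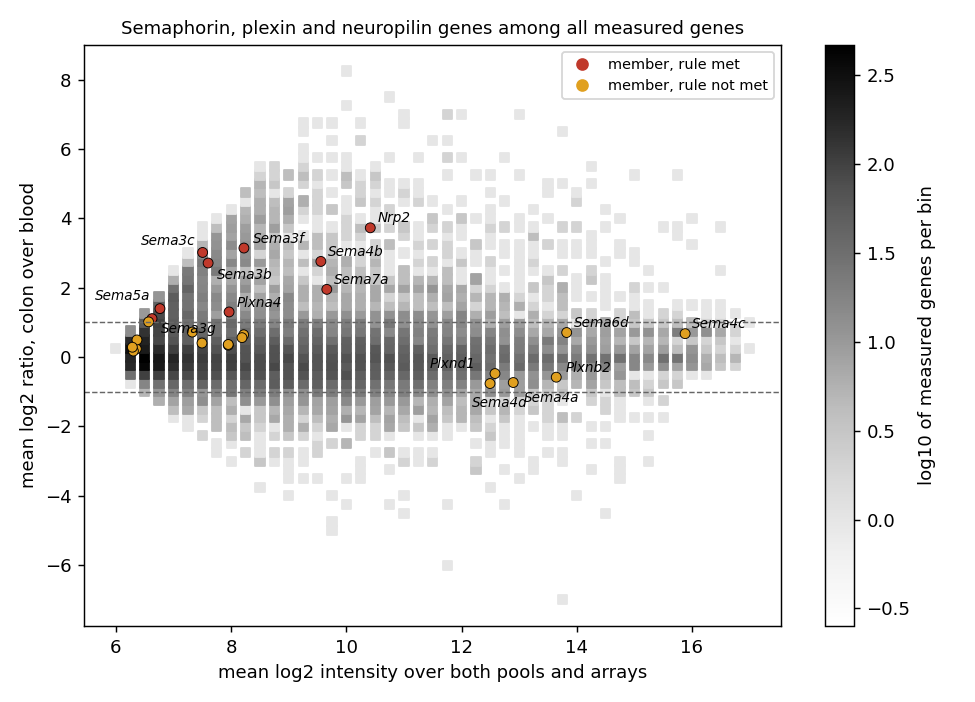
Mean colon-over-blood log2 ratio against mean log2 intensity, for all 17225 measured genes (grey, darker with more genes per bin) and for the 26 measured genes of the family (red where the 2-fold rule was met on each array, orange where it was not). Sema3b, Sema3c, Sema3f, Sema4b, Sema7a and Nrp2 lie well above the dashed 2-fold line, while Sema4a, Sema4d, Plxnb2 and Plxnd1 lie between 0 and the lower line.

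Partners and signalling genes of the family were read from a list of 52 genes, of which 47 were measured. Of these, 11 were higher in the colon pool (23.4%, beside 14.0% of all measured genes). Another 2 were lower (4.26%, the same share as among all measured genes), and the median was 0.38. Among the other ligands of neuropilins, 4 of 5 were higher. They were the growth factor genes Pgf (3.20 ± 0.03), Vegfa (2.13 ± 0.26) and Vegfb (1.92 ± 0.02), and Vegfd, which was at least 4.01-fold higher with a blood signal not well above background. Vegfc (0.88 ± 0.28) did not pass. Of the VEGF receptors that pair with neuropilins, Flt1 was lower (-1.60 ± 0.28), with 482 and 552 in the colon pool against 1673 and 1454 in the blood pool. Kdr (1.05 ± 0.22) missed the rule on 1 array, and Flt4 was not well above background in either pool.

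Among binding partners, Cd72, which encodes the leukocyte receptor of Sema4d, was higher at 4.47 ± 0.12, with 11312 and 11384 in the colon pool against 480 and 542 in the blood pool. Trem2, which in mouse myeloid cells joins plexin A1 in a receptor for Sema6d, was higher (1.68 ± 0.08), while its adaptor gene Tyrobp (-0.73 ± 0.35) did not pass. The integrin genes Itgb1 (0.43 ± 0.07) and Itga1 (-0.89 ± 0.38), whose products bind Sema7a, did not pass either. Mmp14, a membrane protease that can shed Sema4d in human tumour cells, was higher (4.51 ± 0.33), and the pro-protein convertase gene Furin, whose product processes class 3 semaphorins, was at 0.38 ± 0.03. Of 26 measured cytoplasmic effectors 4 were higher (15.4%) and 1 lower (3.85%), shares near the 14.0% and 4.26% of all measured genes. The higher ones were Dpysl3 of the collapsin response mediator family (3.90 ± 0.09), the plexin B-associated exchange factor gene Arhgef12 (2.85 ± 0.10), the plexin-binding GTPase gene Rnd1 (2.58 ± 0.06) and Farp1 (2.03 ± 0.23), and the lower one was Rras (-1.52 ± 0.04), a GTPase that plexins inactivate.

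Of 44 genes of other guidance families 27 were measured, 11 higher and 0 lower (median 0.996). Among the higher ones were the Eph receptor gene Epha2 (2.63 ± 0.17), the netrin receptor gene Unc5b (2.46 ± 0.17), the vascular Robo gene Robo4 (at least 5.20-fold) and the Slit gene Slit3 (2.20 ± 0.04). The brightest probes of Ephb3 and Epha5 also hold a GT run and gave 1.72 and -0.29, and 1.66 and -0.09, on arrays 1 and 2. The share of higher genes was above 14.0% in the semaphorin family and in the other guidance families alike. Both shares count genes measured through the colon pool alone, which could not have been called lower, so they only describe the lists. No difference between these lists was tested.

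**Figure D5:**
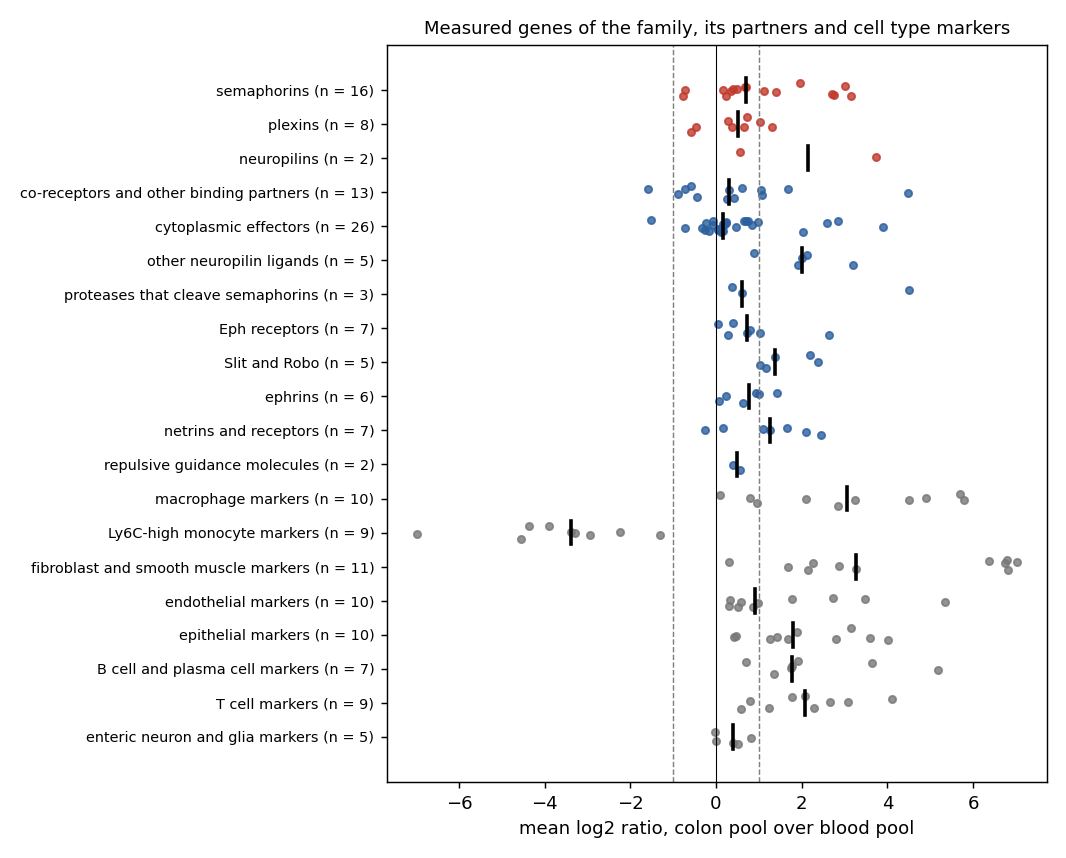
Mean colon-over-blood log2 ratio for each measured gene (points) and the median (black bar) of the semaphorins, plexins and neuropilins (red), their partners and other guidance families (blue) and cell type markers (grey), with dashed lines at 2-fold and the number of measured genes beside each name. The highest semaphorin ratio is 3.15. Higher ratios are reached by markers of fibroblasts and smooth muscle (7.01), macrophages (5.78), endothelium (5.35), B cells and plasma cells (5.18), T cells (4.10) and epithelium (4.01). The Ly6C-high monocyte markers all lie to the left.

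Several of the higher genes are also known from stromal, vascular or epithelial cells, so marker signals are given beside them. Each sum adds different probes, with the offset of 50 included in each. The sums compare the pools within a list and not the lists with each other. The summed signal of 11 measured fibroblast and smooth muscle markers was 113889 and 122033 in the colon pool, against 2185 and 2112 in the blood pool, where Des, Myh11 and Pdgfra were not well above background. Their ratios ran from 0.30 for Des to 7.01 for Dcn. For 10 measured endothelial markers the sums were 6508 and 5712 in the colon pool, against 1504 and 1416 in the blood pool, where Cdh5, Cldn5, Lyve1, Tek and Tie1 were not well above background. Among them Lyve1, a marker of lymphatic vessels that macrophages can also express, read 2838 and 2202 in the colon pool and was at least 40.8-fold higher. The lymphatic factor gene Prox1, which is not in the sums, was not well above background in either pool. For 10 measured epithelial markers the sums were 7014 and 6090 in the colon pool, against 1024 and 832 in the blood pool, where Cdx1, Epcam, Krt19, Krt20, Muc2 and Vil1 were not well above background. For B cells and plasma cells the sums over 7 markers were 34344 and 35283 in the colon pool, against 2350 and 2434 in the blood pool, with Cd79a below that level in blood. Jchain alone read 28991 and 29942 in the colon pool, against 716 and 920.1 in the blood pool, and so made up most of the colon sums. Pax5, not in the sums, was not well above background in either pool. For T cells the sums over 9 markers were 9656 and 8819 in the colon pool, against 2479 and 1979 in the blood pool, with Cd3g below that level in blood, and Cd8a, not in the sums, was not well above background in either pool. For 10 measured macrophage markers the sums were 375777 and 405010 in the colon pool, against 83268.5 and 102921 in the blood pool. Of 10 markers of enteric neurons and glia 5 were measured and 0 were called. The part of these cells in the ratios of Sema3b, Sema3c, Sema3f, Sema3g, Sema4b, Sema5a, Sema7a, Plxna4 and Nrp2 was not tested.

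Promoters of the genes were read from RefSeq (build GRCm38.p6) as 300 bases, 250 before and 50 after the start. The table matched 26 of the 31 genes, with 37 promoters. The letters GGGCGG, the GC box, were found on either strand in 27 of the 37 (73.0%), beside 35.7% of all 32851 promoters. They were also found in all 7 promoters of the higher genes that matched. Among the higher genes, Sema3b, Sema3f and Plxna4 had no match, and Sema4b is counted with each of its promoters. The G and C content of all promoters was not set beside these shares. TATAAA, the TATA box, was found in 0 of 37, beside 13.6% of all. TGAGTCA, the AP-1 motif, was found in 2 of 37 (5.41%, all promoters 5.20%) and CACGTG, the E-box, in 3 of 37 (8.11%, all promoters 7.15%). GAGGAAGT, a motif of ETS factors such as PU.1, was found in 0 of 37 (all promoters 3.20%), as was TGACGTCA, the cyclic AMP response element (all promoters 1.79%). None of these motifs contains another. The promoters of Nrp2 (chr1:62703067-62703366, plus strand) and of its ligand Sema3c (chr5:17574566-17574865, plus strand) are shown because both genes passed the rule, with copies of GGGCGG or its complement CCGCCC in capitals. Where copies overlap, one of them is marked.
Nrp2 promoter: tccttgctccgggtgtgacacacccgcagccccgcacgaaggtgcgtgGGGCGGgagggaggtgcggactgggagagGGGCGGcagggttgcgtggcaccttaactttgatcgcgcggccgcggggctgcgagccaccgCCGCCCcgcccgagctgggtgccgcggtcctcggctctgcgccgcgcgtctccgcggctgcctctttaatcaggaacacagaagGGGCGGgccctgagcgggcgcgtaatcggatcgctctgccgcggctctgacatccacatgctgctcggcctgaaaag
Sema3c promoter: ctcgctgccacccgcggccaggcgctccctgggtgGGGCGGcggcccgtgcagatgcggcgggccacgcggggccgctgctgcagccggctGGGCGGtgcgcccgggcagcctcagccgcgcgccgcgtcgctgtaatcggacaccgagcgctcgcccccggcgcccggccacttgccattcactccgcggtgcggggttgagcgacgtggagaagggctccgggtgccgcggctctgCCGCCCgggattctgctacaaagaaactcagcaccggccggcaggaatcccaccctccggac
The Nrp2 promoter holds 4 marked GC boxes at 70.7% G and C, and the Sema3c promoter holds 3 at 75.7%. A match is a description of the letters and not of a bound factor.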

How the data were processed

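Total RNA of both pools, 25 ng each, was copied from a primer with oligo-dT and labelled with Cy3 and Cy5 (per the labels' protocols) and hybridised to Agilent design 026655. The deposited scanner files hold the authors' mean spot intensity and median local background intensity on a linear scale without normalization, and flags per spot, per the file headers. They also hold a log10 ratio of red over green after the software's own processing. A value table deposited with the series gives log10 ratios that equal those, turned to colon over blood, within 4.81e-08, with the software's centring kept. Feature Extraction is version 10.7.3.1 per the file headers and 10.5.1.1 per the submitters' processing notes.

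Here, intensities of 44397 spots per array were corrected with normexp (offset 50) and normalised by loess, in which controls and flagged outliers had weight 0 (limma 3.58.1, R 4.3.3). The ratio of array 2 was turned, spots of a probe were averaged, which left 39424 probes, and the probe of highest mean intensity stood for its gene. Signals per pool were taken after Aquantile scaling. Gene names are those of the scanner files, and list genes were matched through RefSeq synonyms where needed (196 of 197). Bounds ("at least") compare the bright pool with the higher of the dim probe's own signal and the lowest signal well above background, per array. They hold for the probe that stood for the gene and for this processing alone. No spot was saturated, and both arrays shared a slide (per the file headers). In each pool and array, 52.9% to 59.6% of 43020 probe spots passed the background flag. The number of arrays limits the precision.

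The genes, lists and tests were chosen with earlier results of these data known. Genes were described with their signals where they were called, had a bound, had probes that disagreed or were among the 6 brightest that did not pass, and Nrp1 beside Nrp2. Of each list, up to 4 genes per direction and the partners Kdr, Flt1, Trem2, Tyrobp, Cd72 and Vegfa were named, and further partners and effectors were added for their known link to the family after their values had been seen.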

Additional observations from a re-analysis of the deposited data

How the results depend on the processing

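All 9 higher genes of the family kept a ratio above 0 under the 13 alternatives tried, some of which could not change a ratio. Aquantile scaling, the filters on dim probes and the names through RefSeq leave these ratios as they are. So does leaving out probes with a GT run, and the deposited value table repeats the software's ratios. The count of higher genes ran from 6 (both pools well above background, which removes Sema3c, Sema3g and Sema5a) to 13 (the scanner software's ratios and the deposited value table, which add Plxna2, Plxna3, Sema3d and Sema6a), and was 9 and 12 without array 1 and without array 2. At 4-fold 5 of the 26 measured genes were higher and 0 lower, beside 1058 higher and 134 lower of all 17225. At 1.5-fold 12 of the 26 were higher and 2 lower, beside 3769 higher and 1810 lower of all 17225. The median of the family was 0.37 under median centring, 1.14 with the software's ratios and the deposited table, and 0.50 with dim probes kept in. The median of all measured genes was 0.06, -0.27 under median centring and -0.13 with the software's ratios. Partners and signalling genes were higher for 17 at 1.5-fold and 7 at 4-fold, and lower for 5 with the software's ratios and the deposited table, 4 at 1.5-fold and 0 at 4-fold. Other guidance families were higher for 7 with both pools well above background and 5 at 4-fold, and lower for 1 with the software's ratios and the deposited table. Of all measured genes 2403 were higher and 733 lower (76.6% of calls higher). Higher were 1259 under median centring, 3769 at 1.5-fold and 1058 at 4-fold. Lower were 2300 with the software's ratios and the deposited table (59.7% of calls higher), 1810 at 1.5-fold and 134 at 4-fold. The thresholds change these counts by construction, and for the other settings the cause was not tested. Signals near background limit Sema3a, Sema3d, Sema3g, Sema5a, Sema6a, Plxna2 and Plxna3. Each ratio compares both pools on the same array, and because the arrays form 1 replicate no test across replicates was possible.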

Other observations

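Of the 10 genes with 2 probes, the probe further 3′ on the gene's strand, by genome position, was the brighter one in 10. The share was 60.4% among 5199 genes with 2 probes on a strand of a chromosome. Position within a transcript was not read. The probes of Nrp2, of Sema3g and of Sema4f were annotated to different transcript records, and the part of transcript variants in these signals was not tested. For Sema4f and Sema5b neither probe was measured. With both probes measured, the 3′ probe was the brighter one in 5 of 5, beside 65.3% of 2913 genes. The labelling starts from an oligo-dT primer, and its part in these signals was not tested. Brightness of different probes does not compare transcript levels. In 3 of the 10 genes the brighter probe was measured and the other was not, namely Plxna4, Sema3a and Sema3g. The absolute log2 ratio was larger with the brighter probe in 7 of the 10, beside 65.0% of the 5199. The exceptions were Sema6d, whose brighter probe holds the GT run, Plxnd1 (-0.47 and -0.56) and Sema5b (-0.03 from both, not measured).

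Among all measured genes, 100 had a probe with a GT run as the brightest, and 0 of them were called. With such probes left out, 2407 genes were higher and 735 lower.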
